A study of Mus musculus with 4 samples.

Results

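Cxcl13, a chemokine gene, and Cxcr5, which encodes the receptor that this chemokine binds, were measured in the spinal cord of mice with a ligated spinal nerve and of sham-operated mice. The 2 genes were taken by their names in the scanner files, out of 34787 genes and named transcripts on the array, and each is read by 1 probe of 55681 and by 1 spot per array. The data are 4 one-colour Agilent arrays of total RNA from 4 male ICR mice, an outbred strain, aged 8 weeks. In 2 mice the fifth lumbar spinal nerve was exposed and tied with silk (spinal nerve ligation, SNL), and in 2 mice it was exposed only (sham). All 4 were perfused with saline at day 10 and gave 1 RNA sample and 1 array each. The protocol in the labels names the L4 and L5 cord segments together, the sample descriptions name L5 alone, and no label states the side of the cord. No genetic change or drug is named for either group.

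CXCL13 is a secreted CXC chemokine that draws B cells into the follicles of lymph nodes and spleen, where stromal cells make it under the control of lymphotoxin and the noncanonical NF-kB pathway. CXCR5 is its G protein-coupled receptor, carried by B cells and follicular helper T cells. In the spinal cord the pair has been studied in neuropathic pain, with CXCL13 described in neurons and CXCR5 in astrocytes, and the comparison asks whether either transcript differs in the cord of mice with an injured nerve.

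Both measurements rest on a single oligonucleotide of 60 bases. The Cxcl13 probe lies on chromosome 5 at 96389861 to 96389920 on mm9, the build of the array files, and starts at base 935 of its transcript. The Cxcr5 probe lies on chromosome 9 at 44320071 to 44320130 on mm9, listed from the higher to the lower coordinate, and starts at base 2354 of its transcript. The first 30 bases of each are shown because they are the sequence that reads each transcript. Bases G and C make up 35.0% of the Cxcl13 probe and 46.7% of the Cxcr5 probe.
Cxcl13 probe: gatttattgtcttgcattaaaaccagtaac
Cxcr5 probe: gggaaaccaatgctatagcttcagagactg

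The 250 bases before the start of Cxcl13, on chr5:95956689-95956938 of GRCm38.p6, plus strand, are shown from RefSeq as the regulatory stretch next to the transcript with the larger difference. Capitals mark the only TATAAA, searched on the plus strand, which begins 46 bases before the start. TATAAA is found in 7.59% of 32851 promoter windows of this length. Searched on both strands, CANNTG occurred once, 91 bases before the start (66.2% of windows hold it). TTCNNNGAA and the kappa B consensus GGGRNWYYCC did not occur (7.02% and 3.90% of windows hold them). Kappa B sites that depart from these letters were not searched, so their absence is not shown.
Cxcl13: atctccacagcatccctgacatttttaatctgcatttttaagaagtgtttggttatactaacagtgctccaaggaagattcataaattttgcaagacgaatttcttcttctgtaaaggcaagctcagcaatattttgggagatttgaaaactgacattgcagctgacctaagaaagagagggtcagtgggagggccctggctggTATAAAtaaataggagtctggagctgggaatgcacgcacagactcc

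The arrays of the groups differed in background and in position. The background that the software subtracted had a median of 118.1 and 117.3 on the SNL arrays, against 80.2 and 86.3 on the sham arrays. All 4 arrays were on 1 slide, with the SNL arrays in row 2 and the sham arrays in row 1, so slide row and group cannot be told apart. Some markers of other tissue also differed between mice. The muscle genes Ckm and Myh1 stood apart in SNL mouse 1, at 72.4-fold and 115.8-fold above SNL mouse 2. Prx, a gene of myelinating Schwann cells, stood apart in sham mouse 2, at 49.5-fold below sham mouse 1. These 3 genes were chosen after their values were seen, and tissue content itself was not tested. The cord markers Snap25 (neurons), Gfap (astrocytes) and Mbp (myelin) were well above background on all 4 arrays.

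Cxcl13 signal was higher in both SNL mice than in both sham mice. The processed signal of its spot, in linear scanner units after background subtraction, was 8226 and 1711 in SNL mice 1 and 2, against 74.0 and 83.7 in sham mice 1 and 2. Both SNL mice lay far above both sham mice, and the lower SNL mouse was 18.9-fold above the higher sham mouse after scaling. The spot was well above background on all 4 arrays, with no surrogate value, saturation or outlier flag. On the sham arrays it was close to background all the same, since the unsubtracted mean signal was 62.7 and 14.8 times the background in SNL mice and 2.00 and 1.98 times in sham mice. Of 308 negative control spots per array, 100% and 100% were dimmer than the Cxcl13 spot on the SNL arrays and 99.7% and 99.7% on the sham arrays.

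After scaling each array to its 75th percentile and taking log2, Cxcl13 was at -0.52 and -2.93 in SNL mice and at -7.43 and -7.18 in sham mice. The sham mice were 1.19-fold apart and the SNL mice 5.32-fold apart. In limma the difference, SNL minus sham, was 5.57 ± 0.90 in log2 units (SE, n = 2 per group), or 47.7-fold, and Cxcl13 did not pass at an adjusted p of 0.186 (Benjamini-Hochberg over 29114 genes). The 95% interval of limma ran from 7.88-fold to 288.3-fold. At the threshold of 0.05 on the adjusted p, 0.161% of tested genes were called higher in SNL and 0.0103% lower. The difference of Cxcl13 was the 8th largest on the higher side among all tested genes, and 41 of the 47 genes called higher had a smaller one. RNA per cell and the number of cells that make a transcript cannot be told apart in a whole segment of cord.

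The SNL mice differed from each other more than the sham mice did. The SD of Cxcl13 was 1.70 in SNL mice and 0.18 in sham mice (log2, n = 2 each), against medians over all tested genes of 0.12 in SNL mice and 0.099 in sham mice. A spread in SNL mice at least as large was found for 172 genes, or 0.591% of those tested. The software's own error was 10.0% and 10.1% of the signal on the SNL arrays and 18.0% and 16.2% on the sham arrays. Set against the mean of both sham mice, SNL mouse 1 was 109.9-fold higher and SNL mouse 2 was 20.7-fold higher. These are also the differences without SNL mouse 2 and without SNL mouse 1, with adjusted p of 0.102 and 0.119 in limma, where the lone SNL mouse is assumed to vary as the sham mice did. With normexp background correction the change was 4.40 ± 0.84 (SE, n = 2 per group), or 21.1-fold (limma adjusted p = 0.157).

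Cxcr5 was too dim to be compared between the groups. Its processed signal was 20.9 and 20.4 in SNL mice 1 and 2, both surrogate values for a spot too dim to measure, against 31.3 and 82.6 in sham mice 1 and 2. Only sham mouse 2 had a spot well above background, so the gene counted as measured in 0 of 2 SNL mice and 1 of 2 sham mice. It was not tested, because at least 2 arrays were required. The software's separate flag for a signal positive and significant against background was set for both sham spots and for neither SNL spot. On the scaled log2 axis it was at -9.15 and -9.32 in SNL mice and at -8.67 and -7.20 in sham mice. The difference of the means was -1.30 (SD 0.12 in SNL mice and 1.04 in sham mice, n = 2 each). Both SNL spots were too dim to measure, and no usable bound on the difference follows from them. No fold is given, since the lowest signal counted as well above background was 99.9 and 101.6 on the SNL arrays, above both sham signals of Cxcr5. On the sham arrays that lowest signal was 54.9 and 46.9.

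Before background subtraction the Cxcr5 spot did not separate the groups. Its mean signal was 140.8 and 146.3 in SNL mice, between the 107.2 and 166.3 of sham mice 1 and 2. The background subtracted beneath it was 121.9 and 129.0 on the SNL arrays and 77.5 and 82.9 on the sham arrays. Of the negative control spots, 91.6% and 97.4% were dimmer than Cxcr5 on the SNL arrays, and 97.1% and 99.7% on the sham arrays. With normexp correction, which uses the local background of each spot, the difference was -0.029, and with no filter on dim probes limma gave an adjusted p of 0.394. On the number 2 array of each group the software did not find the Cxcr5 spot at its place.

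**Figure D1:**
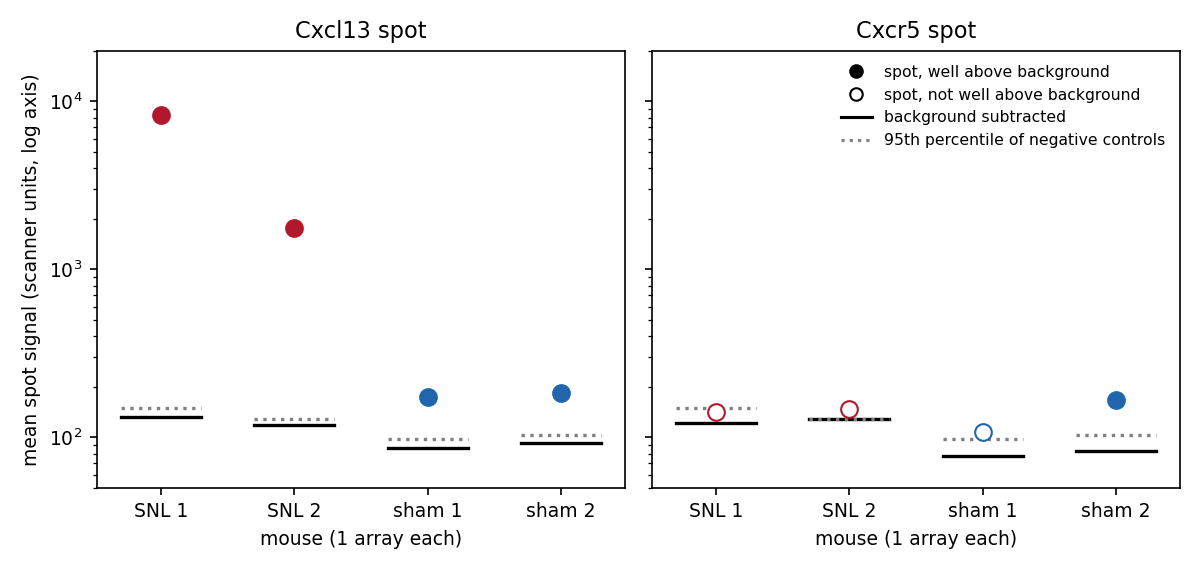
Mean spot signal before background subtraction (scanner units, log axis) for Cxcl13 (left) and Cxcr5 (right) in each mouse, with SNL in red and sham in blue. Filled points were well above background, black lines are the background the software subtracted at that spot, and dotted lines are the 95th percentile of the 308 negative controls. Cxcl13 lies far above both lines in SNL mice and about 2 times above background in sham mice, while Cxcr5 lies near the lines on the SNL arrays.

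Of the CXC family, 15 ligand genes and 9 receptor genes were listed and all 24 are on the array. Tests were possible for 18 of them. Cxcl2 and Cxcl3, which attract neutrophils, the lung chemokine gene Cxcl15 and the neutrophil receptor gene Cxcr1 were well above background on no array, and Cxcl17 was left out because its spot was flagged as an outlier on both sham arrays. None of the 18 passed over all genes. At unadjusted p under 0.05 in limma, 5 of the 18 were higher and 2 lower, against 6.67% and 5.48% of all tested genes. Both SNL mice lay above both sham mice for 11 genes and below both for 4, against 24.9% and 20.9% of all tested genes.

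Among ligands, Cxcl10, an interferon-induced attractant of T cells, was at -1.41 and -2.30 in SNL mice and at -4.06 and -4.39 in sham mice, without overlap. Its change was 2.37 ± 0.36 (SE, n = 2 per group; adjusted p = 0.176 in limma), and as for Cxcl13 the higher value was in SNL mouse 1. Cxcl9, another interferon-induced ligand, was at -4.16 and -4.11 in SNL mice and at -4.66 and -5.20 in sham mice, a change of 0.80 ± 0.22 (adjusted p = 0.333). Both bind CXCR3. Cxcl1, which attracts neutrophils, was at -3.77 and -1.98 in SNL mice and at -4.32 and -5.004 in sham mice (1.79 ± 0.71, adjusted p = 0.459), with its higher value in SNL mouse 2. Cxcl16, a membrane-bound ligand of CXCR6, was at -1.02 and -1.48 in SNL mice and at -1.64 and -2.48 in sham mice.

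The platelet chemokine genes Ppbp and Pf4 varied within groups. Ppbp was at -1.85 and -4.83 in SNL mice and at -4.92 and -5.07 in sham mice, so that only SNL mouse 1 stood clear of the sham mice. Pf4 overlapped between the groups. Cxcl5, a neutrophil attractant, was lower, at -3.10 and -2.80 in SNL mice and at -2.37 and -2.57 in sham mice (-0.48 ± 0.16, adjusted p = 0.396). Cxcl12 and Cxcl14, which are made by many tissues without injury, were at -0.16 ± 0.090 and -0.26 ± 0.12. Cxcl11, which RefSeq annotates as a transcribed pseudogene, was at 0.23 ± 0.099. None of them passed (adjusted p of 0.480 to 0.578 in limma). The median change of the 17 tested family members other than Cxcl13 was 0.46, against 0.028 over all tested genes.

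Among receptors, Cxcr6, carried by T cells and natural killer cells, was at -3.57 and -3.82 in SNL mice and at -5.01 and -6.32 in sham mice (1.97 ± 0.50, adjusted p = 0.309), and a second probe of it gave 2.19. Cxcr3, the receptor of Cxcl9 and Cxcl10, was at -6.01 and -6.95 in SNL mice and at -7.55 and -7.62 in sham mice (1.11 ± 0.36, adjusted p = 0.387), with 1 of the 2 SNL spots too dim to count as well above background. Ackr3, a scavenging receptor of Cxcl12, was lower, at -1.58 and -1.70 in SNL mice against -1.14 and -1.25 in sham mice. The neutrophil receptor gene Cxcr2, at -0.040 ± 0.11, and the CXCL12 receptor gene Cxcr4, at -0.21 ± 0.35, overlapped between the groups. The scavenging receptor genes Ackr1 and Ackr4 were at 0.46 ± 0.22 and 0.26 ± 0.14.

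**Figure D2:**
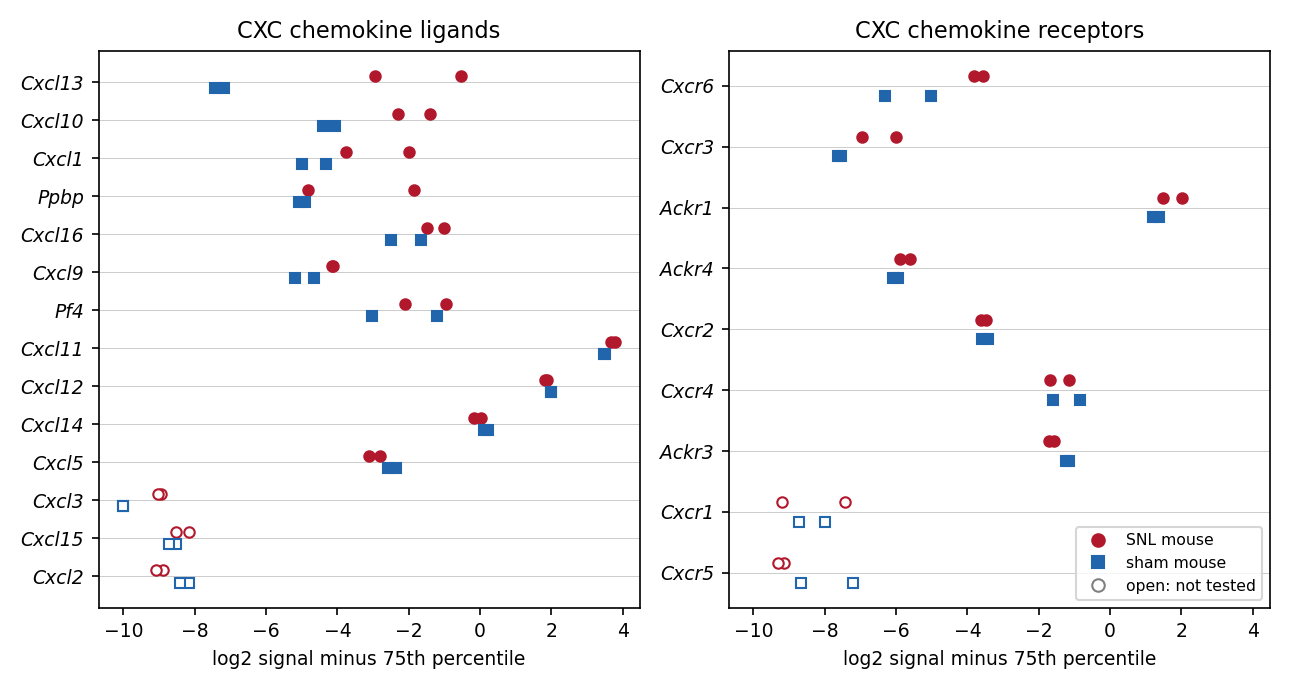
Log2 signal minus the 75th percentile of the array for CXC ligands (left) and receptors (right), 1 point per mouse, with SNL as red circles above sham as blue squares. Open symbols were not tested, and levels compare mice within a row and not genes with each other. The SNL and sham points of Cxcl13 lie farther apart than those of the other tested ligands, and the points of Cxcr5 lie at the dim end of the axis.

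The list for lymphotoxin and the noncanonical NF-kB pathway, which maintains Cxcl13 in lymphoid tissue, had 20 of 21 genes tested and 0 called. At unadjusted p under 0.05 in limma 4 were higher and 2 lower (6.67% and 5.48% of all tested genes), and the median change was 0.12, or 0.0054 with normexp correction. Lta and Ltb, the lymphotoxin subunits, were at 0.12 ± 0.11 and 0.28 ± 0.17, and their receptor gene Ltbr at 0.079 ± 0.12, none of which passed. The kinase gene Map3k14 and the subunit genes Nfkb2 and Relb were at 0.34 ± 0.14, 0.37 ± 0.14 and -0.13 ± 0.14. These 6 were chosen for their place in the pathway. The smallest p in the list belonged to the tumour necrosis factor receptor gene Tnfrsf1b, at -2.36 and -2.41 in SNL mice and at -3.83 and -3.63 in sham mice (1.35 ± 0.12, adjusted p = 0.0908).

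Also in that list, Birc3, an inhibitor of apoptosis induced by NF-kB, was at 0.74 ± 0.11 (adjusted p = 0.167 in limma). Tnfsf11, which encodes the cytokine RANKL, was at -4.99 and -5.76 in SNL mice and at -7.79 and -7.37 in sham mice (2.20 ± 0.33, adjusted p = 0.176), with 1 of the 2 sham spots too dim to count as well above background.

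All 26 genes listed for Gi-coupled receptor signalling, which is not particular to CXCR5, were tested and 0 were called. At unadjusted p under 0.05 in limma 6 were higher and 0 lower (6.67% and 5.48% of all tested genes). Both SNL mice lay above both sham mice for 15 and below both for 1 (24.9% and 20.9% of all tested genes), and the median change was 0.18. Rac2, a GTPase of blood cells and microglia, was at 0.74 ± 0.094 (adjusted p = 0.147). The phosphoinositide kinase gene Pik3cg, at 0.83 ± 0.18, and Rgs1, which limits signalling by chemokine receptors, at 1.47 ± 0.29, did not pass either. The inhibitory G protein genes Gnai1, Gnai2 and Gnai3 were at 0.056 ± 0.10, 0.24 ± 0.12 and -0.0081 ± 0.090, and the kinase gene Mapk3, which acts below CXCR5, at 0.12 ± 0.13.

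Markers of the cells that carry CXCR5 in lymphoid tissue were read gene by gene. Of 16 B cell genes 15 were tested, with 0 called, 1 higher and 1 lower at unadjusted p under 0.05 in limma (6.67% and 5.48% of all tested genes), and a median change of -0.078. Ms4a1, which encodes the B cell protein CD20, was at -5.06 and -6.46 in SNL mice and at -6.45 and -4.86 in sham mice, with overlap. Cd79a overlapped too, at -5.59 and -6.62 in SNL mice and at -5.88 and -5.12 in sham mice. Cd22, which microglia also express, was at 0.50 ± 0.10 (adjusted p = 0.243). The signal of the tested B cell genes was also summed, as multiples of each array's 75th percentile. The sum was 9.52 and 9.87 in SNL mice and 7.69 and 8.75 in sham mice, without overlap. Its brightest members, Cd22 and Ebf1, weigh most in it. Cd22 was at 2.21 and 2.09 in SNL mice and at 1.68 and 1.61 in sham mice. Of the 15 tested genes 5 were higher and 10 lower. The part of B cells in the Cxcl13 signal was not tested.

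Of 16 genes of T cells and follicular helper T cells 15 were tested, with 0 called, 3 higher and 1 lower at unadjusted p under 0.05 in limma (6.67% and 5.48% of all tested genes). Cd3e, a subunit of the T cell receptor complex, was at -4.60 and -4.49 in SNL mice and at -5.23 and -5.60 in sham mice (0.87 ± 0.17, adjusted p = 0.227). Other subunits of the complex overlapped between the groups, with Cd3d at -0.46 ± 0.42 and Cd3g at 0.097 ± 0.52. Pdcd1, which encodes the checkpoint receptor PD-1, was at 1.31 ± 0.28 and the helper cytokine gene Il21 at -0.56 ± 0.15, neither past the threshold. Bcl6, the factor that sets the follicular helper state, was at -0.15 ± 0.11. Of the stromal and follicular dendritic genes, 11 of 12 were tested and 0 called. In limma, 3 of these were higher and 0 lower at unadjusted p under 0.05 (6.67% and 5.48% of all tested genes). Tnfsf11, the adhesion gene Icam1 (1.98 ± 0.46) and the Fc receptor gene Fcgr2b (1.65 ± 0.52) were lowest in p. The complement receptor gene Cr2 was at -0.032 ± 0.26 by the brighter of its 2 probes. With the mean of its tested probes Cr2 was at 0.60, so its reading depends on the probe. For the chemokine partners of lymphoid tissue, 7 of 12 were tested. At unadjusted p under 0.05 in limma 0 of these were higher and 0 lower (6.67% and 5.48% of all tested genes). Ccl19, a ligand of CCR7, was at -0.076 ± 0.093. Of the 10 plasma cell genes 7 were tested and 0 called. In limma, 1 of these was higher and 0 lower at unadjusted p under 0.05 (6.67% and 5.48% of all tested genes). Sdc1, which other cells make too, was at 1.86 ± 0.22.

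Glial markers were read beside the pair because astrocytes have been described as carriers of CXCR5. All 14 microglia genes were above sham without overlap (24.9% of all tested genes) and 12 were higher at unadjusted p under 0.05 in limma (6.67% of all tested genes), with 0 called and a median change of 0.75. The complement genes C1qc, C1qb and C1qa were at 1.61 ± 0.11, 1.51 ± 0.12 and 1.28 ± 0.12 (adjusted p of 0.0742, 0.0876 and 0.0943, and 0.0402, 0.0473 and 0.0496 with normexp correction). Of 16 astrocyte genes 3 were higher at that p and 0 lower (6.67% and 5.48% of all tested genes), with a median change of 0.14. Serpina3n and Timp1, genes of reactive astrocytes, were at 1.23 ± 0.11 and 2.28 ± 0.33, while the astrocyte filament gene Gfap was at 2.21 and 2.11 in SNL mice and at 2.08 and 2.13 in sham mice. Of 15 genes of dendritic cells and macrophages 14 were tested and 0 called, with a median change of 0.43. Among these, 2 were higher at that p and 1 lower (6.67% and 5.48% of all tested genes). Itgax, an integrin of activated microglia and dendritic cells, was at -1.06 and -1.76 in SNL mice and at -3.54 and -3.51 in sham mice. Without sham mouse 2 the median of that list was -0.042. Of the 14 tested neuron genes 1 was higher at that p and 0 lower (6.67% and 5.48% of all tested genes).

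**Figure D3:**
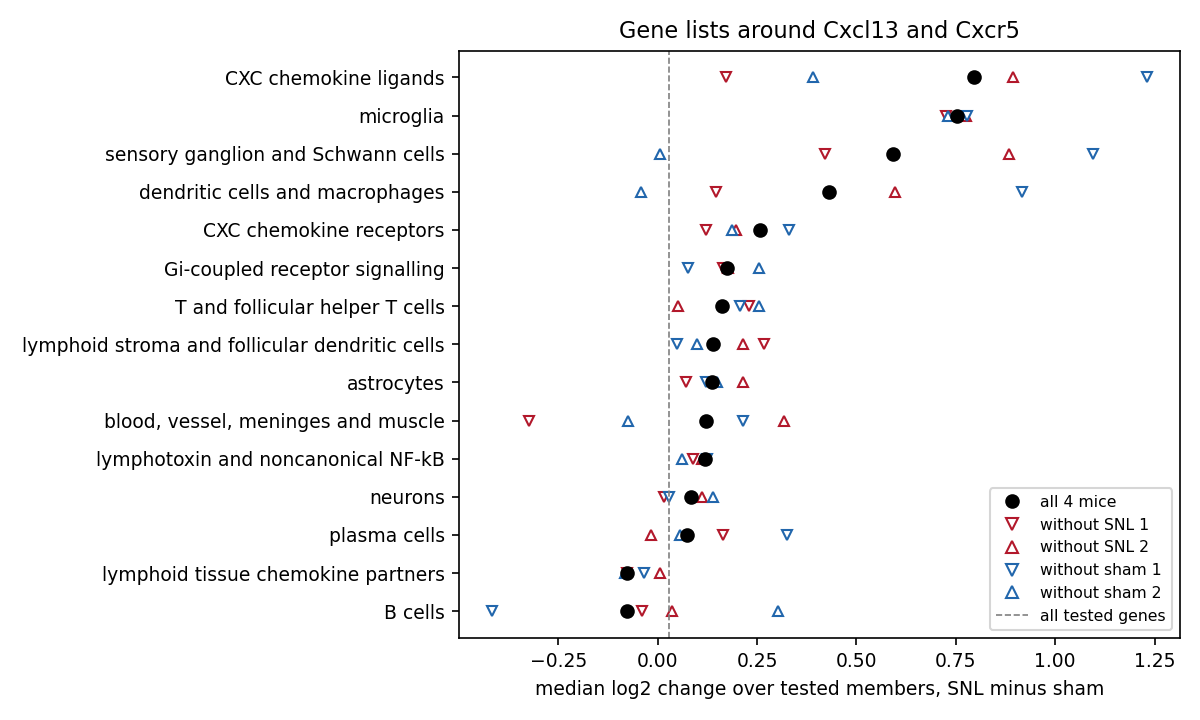
Median log2 change, SNL minus sham, over the tested members of each gene list (black points), with the medians after leaving out 1 mouse (open triangles, red for SNL and blue for sham) and the median of all tested genes (dashed line). The microglia median runs from 0.73 to 0.78 as each mouse is left out, the B cell median from -0.42 to 0.30, and the ligand median runs from 0.17 to 1.23.

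Markers of other tissue were set against Cxcl13 mouse by mouse. The list of blood, vessel, meninges and muscle genes had 14 of 15 members tested. At unadjusted p under 0.05 in limma 0 were higher and 0 lower (6.67% and 5.48% of all tested genes). The summed signal of the list was 52.8 and 32.8 in SNL mice and 38.4 and 37.7 in sham mice, so only SNL mouse 1 stood above the sham mice. Ckm, the muscle creatine kinase gene, was at 1.22 and -4.96 in SNL mice and at -5.18 and -4.11 in sham mice. In SNL mouse 2 Ckm was thus at 0.803 times the mean of the sham mice, Myh1 at 0.359 times and Acta1 at 0.749 times. Other genes linked to muscle went the other way in that mouse. Trim63 was 9.87-fold above its sham mean, and Ankrd1 was at -2.73 against -8.06 and -8.45 in sham mice. Both were too dim on the sham arrays to count as well above background. Cxcl13 in the same mouse was 20.7-fold above its sham mean. The part of muscle tissue in the Cxcl13 signal of the SNL mice was not tested.

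The list of sensory ganglion and Schwann cell genes had 13 of 15 members tested and 0 called. At unadjusted p under 0.05 in limma 1 was higher and 0 lower (6.67% and 5.48% of all tested genes). The summed signal of the list was 47.1 and 35.6 in SNL mice and 39.3 and 26.7 in sham mice. Its brightest member was Mbp, also a gene of cord myelin, so the sum does not measure ganglion or nerve tissue alone. The gene with the smallest p was the sodium channel gene Scn9a, at -4.78 and -5.82 in SNL mice and at -7.35 and -6.65 in sham mice (1.70 ± 0.47, adjusted p = 0.336). Of the other ganglion genes, Trpv1 (0.59 ± 0.25) and Avil (0.23 ± 0.15) also lay above sham without overlap (24.9% of all tested genes) and did not pass. Prph (0.078 ± 0.14), Pou4f1 (0.080 ± 0.25) and Isl1 (-0.022 ± 0.24) overlapped between the groups. Scn10a and Mrgprd were well above background on no array. Prx, which encodes periaxin of Schwann cells, was at 1.97 and 1.29 in SNL mice and at 1.78 and -3.85 in sham mice. The sham mice, which were 49.5-fold apart in Prx, were 1.19-fold apart in Cxcl13, with the higher Cxcl13 in the mouse with the lower Prx. Their Cxcl13 spots were close to background, at 2.00 and 1.98 times it, which limits this comparison. The part of peripheral nerve tissue in the Cxcl13 signal was not tested.

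The genes whose profile over the 4 arrays lay nearest to that of Cxcl13 were found among 19168 tested genes with a current symbol, by the Euclidean distance between log2 values after each gene's mean was subtracted. They were Speer4d, Trim63, Ankrd1, Cyp26a1, Krt16 and Sprr2f, at distances of 1.25 to 1.51, and with only 4 arrays this is a description. Trim63, a ubiquitin ligase gene of muscle wasting, was at -0.56 and -4.76 in SNL mice and at -8.12 and -8.00 in sham mice, and had a wider gap between the SNL mice than Cxcl13. Cyp26a1, which breaks down retinoic acid, was at -1.77 and -2.90 in SNL mice and at -6.61 and -7.04 in sham mice (4.49 ± 0.46, adjusted p = 0.110 in limma). Speer4d, whose near-identical family copies make its reading uncertain, was well above background on all 4 arrays (5.69 ± 0.26, adjusted p = 0.0473 in limma), and with any 1 mouse left out it did not pass. Ankrd1 (an ankyrin repeat gene of muscle), Krt16 (a keratin), Sprr2f (of the cornified envelope) and Trim63 were well above background in the SNL mice alone and were tested only through them, so no test of theirs is given. In Speer4d, Ankrd1, Krt16 and Sprr2f the SNL mice were 0.31 to 0.66 apart on the log2 scale, against 2.41 for Cxcl13.

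**Figure D4:**
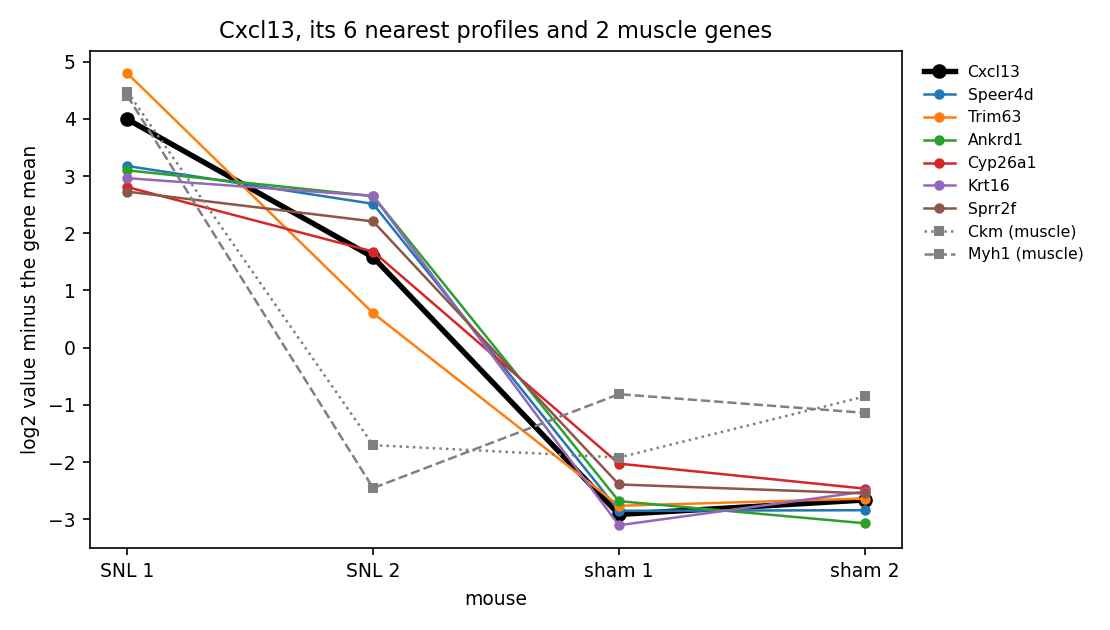
Log2 values minus each gene's mean for Cxcl13 (thick black line), the 6 genes with the nearest profiles (coloured) and the muscle genes Ckm and Myh1 (grey), by mouse. Lines join the values of 1 gene and imply no order of mice. The 6 genes and Cxcl13 are high in both SNL mice, while Ckm and Myh1 are high in SNL mouse 1 only.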

How the data were processed

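The authors' deposited scanner files hold spot intensity on a linear scale from Agilent Feature Extraction, whose version is 10.7.3.1 in the headers (the submitters' processing notes give 10.7.1.1), for array design 28005. Per the file headers, the processed signal is background-subtracted and detrended, dim spots carry a surrogate, and a p-value for each spot against background is given. The authors' deposited table of log2 values follows the scanner values (correlation over spots rounds to 1, medians -3.48, -3.33, -3.45 and -3.52 for SNL 1, SNL 2, sham 1 and sham 2, shift from the values used here 0.122 to 0.132). Its scale is log2 with no centring per gene, and the spots behind its percentile are unknown.

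Each array was scaled on log2 values of the processed signal by subtracting the 75th percentile of its 59305 spots that are not controls. Outlier-flagged spots were left out and spots of a probe averaged. Names came from RefSeq where a probe matched it (26762 probes by accession, 3819 by symbol, 639 by synonym). The other 24461 probes kept their name in the scanner files. Probes well above background on at least 2 of 4 arrays were tested, with the brightest probe per gene. The groups were tested with limma 3.58.1 (R 4.3.3, lmFit, eBayes, no covariate, 2 residual and 1.66 prior degrees of freedom), with Benjamini-Hochberg adjustment, after a test on simulated data. Replicates are separate mice. An exact permutation test of 2 against 2 cannot go below p = 0.333. The number of arrays limits the precision (median SE 0.13).

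The members, the 15 lists of 220 genes and the rules were chosen with earlier results of these data known. Named genes are the CXC family, up to 3 list members with the smallest p, the 6 nearest profiles and list members that bear on Cxcl13 and Cxcr5. Others named, such as lymphotoxin, G protein, muscle and myelin genes, were picked from the lists afterwards. Some list members are not reported here. Alternatives covered background correction, scaling, filter, probe rule, variance model, replicate block and leaving out each mouse. With 1 slide and 1 scan, neither could enter as a block.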

Additional observations from a re-analysis of the deposited data

How the results depend on the processing

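Cxcl13 kept its direction and stayed above the threshold on the adjusted p in all 13 alternatives of limma, with log2 changes of 4.37 to 6.78 and adjusted p of 0.0841 (variance trend and robust estimation) to 0.627 (without sham replicate 2). The replicate numbers are shared by the groups in the labels but pair no animals, and the deviations of same-numbered mice correlated at -0.027 over 29114 genes. With the replicate block Cxcl13 was at 5.57 (adjusted p = 0.360), and the called genes were 0 higher and 0 lower. The Cxcr5 difference of -1.30 was -0.029 with normexp correction and -2.04 to -0.56 with 1 mouse left out. The genes called, 47 higher and 3 lower, were 119 and 14 with normexp correction, 11 and 0 with quantile normalization, 0 and 0 with the 75th percentile over probes well above background on all 4 arrays, 1143 and 88 with no filter on dim probes, and 436 and 123 with variance trend and robust estimation. Requiring all 4 arrays gave 5 lower, and leaving out any 1 mouse gave 0 to 0 in each direction. Where 1 mouse was left out, the lone mouse of its group was assumed to vary as the other group did. Of 865 values of single named genes, 785 kept direction and side of the threshold, 22 passed only under the alternative, 29 no longer passed and 29 turned sign. The 22 came from normexp correction (Tnfrsf1b and the C1q genes, adjusted p of 0.0384 to 0.0496), no filter (these, Serpina3n and Cyp26a1), and variance trend (also Cxcl10, Rac2, Itgax, Sdc1, Cd22 and Timp1, up to 0.0361). No gene that turned sign had passed. With normexp these were Ms4a1 (0.057), Cr2 (0.14), Cd3g (-0.056), Gnai2 (-0.023), Gfap (-0.16) and Ltbr (-0.080), with quantile normalization Cd3g (-0.014), and with the mean of tested probes Cr2 (0.60) and Relb (0.0058). With 1 mouse left out, ranges that crossed 0 were -0.11 to 0.034 for Cxcr2, -0.59 to 0.18 for Cxcr4, -0.31 to 1.51 for Pf4, -0.37 to 0.30 for Cr2, -0.90 to 0.69 for Ms4a1, -0.59 to 0.78 for Cd3g, -0.016 to 0.13 for Gnai1, -0.033 to 0.017 for Gnai3, -0.0021 to 0.24 for Mapk3, -0.28 to 0.015 for Relb, -0.019 to 0.18 for Ltbr, -0.32 to 5.86 for Ckm, -0.42 to 2.14 for Acta1, -1.48 to 5.38 for Myh1 and -0.14 to 5.48 for Prx. The cause of these shifts was not tested. Signal near background limits both Cxcr5 and the sham level of Cxcl13.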
